A study of Mus musculus with 20 samples.

Results

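Mature oligodendrocytes, the myelin-making cells of the hippocampus, were taken from single-nucleus RNA sequencing of 20 mouse hippocampi. A nucleus was chosen when the unique molecular identifiers (UMIs, 1 per captured transcript) of Mog, Mag, Aspa, Prr5l and St18 summed to 4 or more over at least 2 of these 5 genes. It also had to hold at most 1 UMI of the earlier-lineage genes Pdgfra, Enpp6, Bmp4 and Gpr17, at most 1 of the neuronal genes Gad1, Gad2, Prox1 and Fibcd1, and 0 of Csf1r, Aqp4 and Flt1, which mark microglia, astrocytes and endothelium. The rule found 15006 members among 160777 nuclei, or 9.33%. Members were thus chosen by measured counts of these 16 genes, so their levels, and every level of members set against other nuclei, are given as descriptions without a test.

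The mice were male APP/PS1 animals (APPSwe/PS1ΔE9, a model of familial Alzheimer's disease called fAD here) and their wild-type (WT) littermates, aged 4.5 to 5.5 months. Hippocampi were collected from awake mice, after 3 h of isoflurane general anesthesia (GA, 5% lowered to 1.5%), or after 3 h under 150 mg/kg ketamine with 12 mg/kg xylazine. The WT mice were 6 awake, 3 GA and 2 ketamine animals and the fAD mice 3, 4 and 2, each 1 library, and the mouse is the replicate throughout. Both transgenes of this line are driven by the mouse prion protein promoter, and the hippocampus was dissected whole, so members come from all of its subfields.

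Oligodendrocytes wrap axons in myelin, a stack of membrane held together by proteins such as myelin basic protein and built largely from cholesterol and the galactolipids that UGT8 makes. They arise from precursors that carry the PDGF receptor, pass through a committed, newly formed stage marked by Enpp6, Bmp4 and Bcas1, and then switch on late myelin genes such as Mog, Opalin and Mal under the transcription factors MYRF and SOX10. Mature cells also feed axons with lactate, buffer potassium, and respond to circulating glucocorticoids.

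The lineage label held in part. For members over all mice, pooled levels in CPM (UMIs of the gene per 1000000 UMIs) were 3081 for Mbp and 827 for Mobp, which encode structural proteins of myelin, against 225 and 62.0 CPM in all other nuclei. Neuronal transcripts were also present. The summed level of 16 excitatory and pan-neuronal markers ranged over mice from 5227 to 14409 CPM in members and from 15962 to 21571 CPM in all other nuclei. They made up more of the UMIs in members with many UMIs. The 2048 members with over 2 times the median member UMI count of their mouse (13.6%, called large members) carried 13647 to 18729 CPM of the neuronal list. The other 12958 (called smaller members) carried 955 to 3381 CPM. The precursor list was also lower in smaller members than in all other nuclei (470 to 1545 and 2162 to 2809 CPM), as was the astrocyte list by its median (833 and 2945 CPM), with overlapping ranges. Microglial markers overlapped (95.5 to 416 and 82.7 to 421 CPM). Other lists ran the other way. Inhibitory neuron markers summed to 1785 to 3035 CPM in smaller members and 875 to 1666 CPM in all other nuclei, and dentate granule markers to 2302 to 3567 and 817 to 1823 CPM. Choroid plexus markers summed to 704 to 4038 and 81.1 to 1575 CPM, with overlapping ranges. In smaller members, 4 of the 12 inhibitory, 3 of the 10 dentate and 1 of the 8 choroid plexus genes were detected in every mouse. Which genes carried these sums was not tested. Smaller members had 4375 CPM of Mbp and large members 1237 CPM, so both sets held oligodendrocyte transcripts, and the large ones held oligodendrocyte and neuronal transcripts under the same barcode. Scores for doublets (2 nuclei read as 1) marked 10.6% of members (6.06 to 16.5% by mouse) and 3.39 to 8.34% of the other nuclei of a mouse. In smaller members the share was 0.763 to 10.4%, below that of all members in every mouse, so large members were marked more often. The number marked per library was fixed beforehand from its count of nuclei. The main results use all members as the rule defines them, and results in the smaller members, a split made after seeing these values, are printed beside them.

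Of the 22 myelin sheath genes, 16 had a higher pooled level in members than in nuclei of the committed stage and 19 a higher one than in precursors. Mbp was not among the 16, at 3081 CPM in members and 3179 CPM in committed nuclei, nor was Cd9, a tetraspanin, at 204 and 904 CPM. In smaller members Mbp was at 4375 CPM, above the committed level. So were Ugt8a (474 against 393 CPM), Cd81 (499 against 421 CPM) and Plekhb1 (68.9 against 61.4 CPM). Cd9 and Sirt2 stayed below it in smaller members, at 292 against 904 and 169 against 851 CPM. Opalin, a protein of the myelin paranodes, stood at 206 CPM in members, 20.5 CPM in the 238 nuclei taken as committed (3 or more UMIs of Enpp6, Bmp4 and Gpr17) and 6.62 CPM in the 306 taken as precursors (3 or more UMIs of Pdgfra). Mal, a lipid-raft protein of myelin, followed the same order at 442, 71.6 and 41.4 CPM. Ermn, a cytoskeletal protein of the mature sheath, was at 161 CPM in members and 38.9 CPM in committed nuclei, with 0 UMIs in precursors. Genes of the newly formed stage ran the other way. Bcas1 was at 475 CPM in members and 3308 CPM in committed nuclei, Tns3, a focal adhesion protein, at 118 and 1780 CPM, and the kinase gene Fyn, which relays axonal contact, at 165 and 3085 CPM. The Wnt effector Tcf7l2, a factor of differentiating cells, was at 50.8 CPM in members against 1045 CPM in committed nuclei. Precursor proteoglycan Vcan was at 14.9 CPM in members and 1070 CPM in precursors. 

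**Figure D1:**
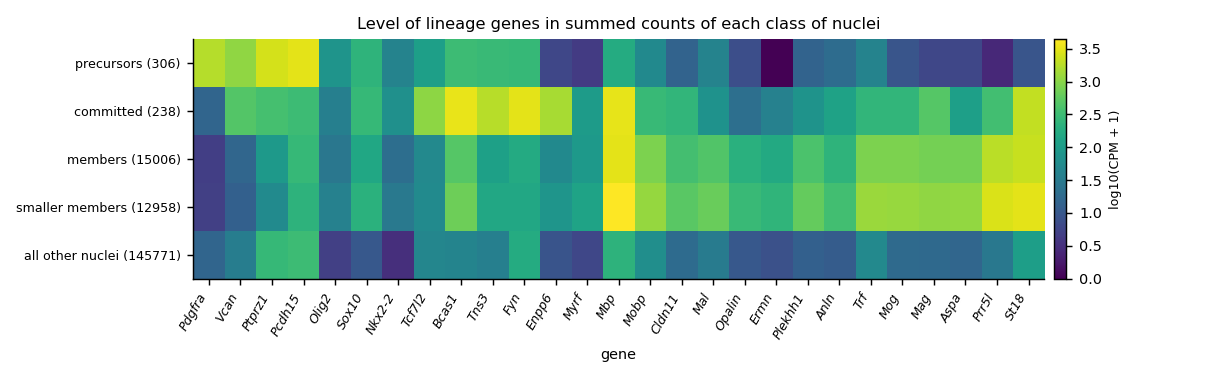
Colour gives log10(CPM + 1) of oligodendrocyte lineage genes (columns) in the summed counts of precursors, committed nuclei, all members, smaller members and all other nuclei (rows). Late genes such as Opalin are highest in the 2 member rows (295 CPM in smaller and 206 in all members, 20.5 in committed nuclei). Bcas1 peaks in committed nuclei (475 CPM in all members and 3308 in committed nuclei).

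Of the 22 myelin sheath genes listed, Mbp, Mobp, Cnp, Mal and Opalin were each higher in members than in other nuclei of the same mouse in 20 of 20 mice, and Cd81 was in 19. Among transcription factors, Olig1, Olig2, Sox10, Myrf, Nkx6-2 and Zfp536 were higher in members in 20 of 20 mice, while the nuclear factor gene Nfib was higher in 0 and Tcf7l2 in 11. fAD-Awake mouse 10 had the lowest Mbp (1124 CPM in members), Cnp, Mal and Opalin of the 20 mice. In that mouse large members held 78.2% of the members' UMIs, the highest share, against 26.4% in WT-Awake mouse 1, the lowest. The step at the rule's edge was gradual. Nuclei with a marker sum of 3, just outside, had 1772 CPM of Mbp (1872 nuclei) and those with a sum of 4, just inside, had 2149 CPM (2128 nuclei).

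Depth set the precision of these sums. Each library held 9243992 to 25394891 UMIs in 4743 to 10877 nuclei, members contributed 250662 to 1590082 UMIs per mouse, and a member had a median of 687 to 1358 UMIs. Mice 1 to 4 stood apart. Mitochondrial transcripts were 1.50 to 2.31% of member UMIs there and 0.0386 to 0.504% in mice 10 to 29. Mouse numbers fall into 3 runs (1 to 4, 10 to 20 and 25 to 29), so the run entered the fit for GA, and results without mice 1 to 4 are given below. Of all members, 617 had a barcode that occurred in another library, and 35 barcodes were shared as members. Summed profiles of any 2 mice had a Pearson r of 0.906 to 0.977 across genes, which are not independent replicates.

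Whether anesthesia or genotype went with a different yield of members was compared over mice. Members made up 2.95, 8.96 and 15.5% of nuclei (lowest, median, highest) in the 9 Awake mice and 5.24, 8.19 and 13.1% in the 7 GA mice. The 4 Ketamine mice had 10.4, 12.0, 13.1 and 13.8%. The ranges overlapped fully between Awake and GA mice and between Awake and Ketamine mice. The mean was 8.83% ± 2.95 (SD, n = 7) under GA and 9.59% ± 4.42 (SD, n = 9) awake, a difference of -0.759 percentage points (exact two-sided permutation test, p = 0.698, adjusted over 3 comparisons 0.767). Ketamine mice averaged 12.3% ± 1.47 (SD, n = 4), 2.73 points above Awake (exact permutation p = 0.262, adjusted 0.767). The share was 9.60% ± 3.82 (SD, n = 9) in fAD and 10.1% ± 3.59 (SD, n = 11) in WT mice (exact permutation p = 0.767, adjusted 0.767). The share moved with the runs of mouse numbers, which this test leaves out: it was 12.4 to 15.3% in mice 1 to 4, 2.95 to 10.3% in mice 10 to 20 and 10.4 to 15.5% in mice 25 to 29. Within mice 1 to 4 it was 13.0 and 15.3% awake and 12.4 and 13.1% under GA, and within mice 10 to 20 it was 2.95 to 10.3% awake and 5.24 to 8.88% under GA. WT-Awake mouse 29, the 1 Awake mouse in the Ketamine run, had 15.5%, above all 4 Ketamine mice, so the direction turned within that run. The ketamine difference was 0.71 points after thinning nuclei to 1000 UMIs and 4.04 points without mice 1 to 4. Thinning left out nuclei with fewer than 1000 UMIs, so the thinned share describes deeper nuclei only. Members left out this way ranged from 55 of 726 in fAD-Awake mouse 2 to 800 of 1118 in WT-GA mouse 3. No difference in yield was detectable against the spread between these mice, where all of mice 1 to 4 lay above all of mice 10 to 20, and a difference in cells captured cannot be told apart from one in UMIs per nucleus.

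**Figure D2:**
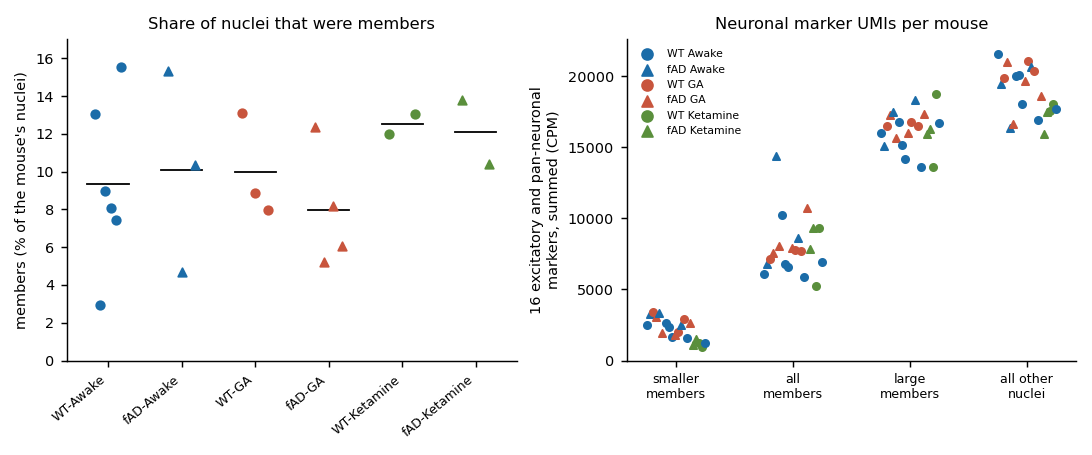
Each point is 1 mouse, with the percentage of its nuclei that are members by group (left) and the summed CPM of 16 neuronal markers in smaller, all and large members and all other nuclei (right). Awake mice span 2.95 to 15.5% and GA mice 5.24 to 13.1%, and smaller members lie at 955 to 3381 CPM where large members lie at 13647 to 18729 CPM.

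GA changed 566 of the 12167 genes tested in members (4.65%), with 342 higher (2.81%) and 224 lower (1.84%) than in Awake mice over both genotypes (edgeR quasi-likelihood test, Benjamini-Hochberg adjusted p under 0.05). The genes with the smallest p among those that rose were Erlin2, Plpbp, Atp11a, Coro1c, Aff1, Fanca, Sh2b2, Lhpp, Xpo1 and Zfand4. Among those that fell they were P4ha1, Erbb3, Pla2g4a, Cdh20, Garem1, Rnf220, Stxbp6, Chn2, Adamts2 and Pak7. The smaller members gave 797 calls of 9794 genes (8.14%, with 510 or 5.21% higher and 287 or 2.93% lower). Of the 566 genes, 470 were also called there (83.0% of the one list and 59.0% of the other), each with the same sign. Smaller members are part of all members, so these lists are not independent. The median log2 fold change over all genes tested was -0.03.

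Erlin2, which encodes an endoplasmic reticulum membrane protein that takes part in degrading ER proteins and restraining sterol synthesis, had the smallest p. Its levels, in CPM scaled between mice by the trimmed mean of M values (TMM), were 15.7, 27.1 and 35.2 (lowest, median, highest) in the 9 Awake mice and 65.4, 120 and 209 in the 7 GA mice. Every GA mouse lay above every Awake mouse. The Ketamine mice were at 42.1, 62.4, 73.6 and 98.9 CPM, all above the Awake mice and 2 of them within the GA range. The log2 fold change was 2.21 ± 0.19 (SE) with an edgeR adjusted p of 2.88e-06, and in smaller members 2.16 ± 0.18. Within the 2 runs that hold both states, the GA minus Awake difference in mean log2 CPM was 2.31 for mice 1 to 4 and 2.00 for mice 10 to 20. Plpbp, a pyridoxal phosphate (vitamin B6) binding protein, lies next to it on chromosome 8. In GENCODE M21 on GRCm38, Erlin2 spans 27023261 to 27040328 and Plpbp 27042555 to 27056132, both on the plus strand. Plpbp stood at 35.6, 51.9 and 108 CPM awake and at 110, 163 and 306 CPM under GA, again without overlap, with a log2 fold change of 1.78 ± 0.16 (SE). The noncoding gene Proscos lies on the opposite strand across the start of Plpbp and rose too (log2 3.15).

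Atp11a, a lipid flippase of the plasma membrane, moved from 78.0, 101 and 138 CPM awake to 205, 236 and 250 CPM under GA. Coro1c, an actin-binding coronin, moved from 52.1, 78.8 and 112 to 154, 231 and 410 CPM. Xpo1, the main nuclear export receptor, moved from 46.4, 59.8 and 75.0 to 102, 140 and 240 CPM. None of these 3 genes overlapped between GA and Awake mice, and their log2 fold changes were 1.21, 1.77 and 1.42. Aff1, a scaffold of the super elongation complex, rose by 1.90 ± 0.23 (SE) and Fanca, of the Fanconi DNA repair complex, by 2.46 ± 0.32 on the log2 scale. Complete separation was rare over all genes. CPM ranges of the 7 GA and 9 Awake mice did not overlap for 65 of the 566 called genes and for 68 of all 12167 (0.559%), of which 45 (0.37%) lay higher and 23 (0.189%) lower under GA.

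**Figure D3:**
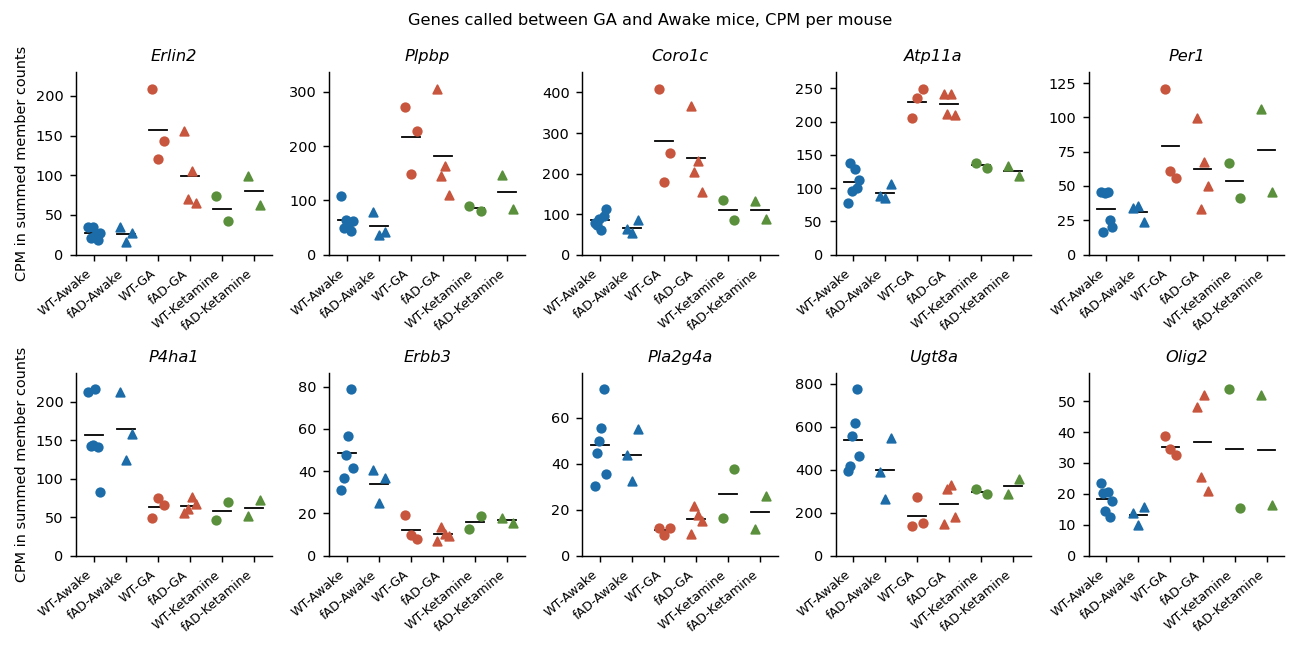
CPM in members of each mouse (points, linear axes from 0) for 10 genes called between GA and Awake mice, by group. Erlin2 lies at 15.7 to 35.2 CPM in Awake mice and 65.4 to 209 CPM in GA mice, and P4ha1 at 82.2 to 216 and 49.3 to 76.2 CPM.

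Among the genes that fell, P4ha1, a prolyl hydroxylase subunit for collagen, went from 82.2, 144 and 216 CPM awake to 49.3, 65.9 and 76.2 CPM under GA without overlap. Its log2 fold change was -1.39 ± 0.17 (edgeR adjusted p = 0.000175). Erbb3, the receptor through which neuregulin acts with ERBB2, was at 24.8, 40.6 and 78.7 CPM awake and 6.98, 9.83 and 19.0 CPM under GA. Pla2g4a, the phospholipase that frees arachidonic acid, was at 30.2, 44.7 and 72.4 CPM awake and 8.84, 12.1 and 21.5 CPM under GA. Neither overlapped, and the log2 fold changes were -1.92 ± 0.25 and -1.84 ± 0.25 (SE). Rnf220, a ubiquitin ligase gene prominent in oligodendrocytes, was at 638, 1543 and 2076 CPM awake and 471, 516 and 1064 CPM under GA, overlapping in range, with a log2 fold change of -1.18 ± 0.18. The kinase gene Pak7, also called Pak5, was at 654, 867 and 1015 CPM awake and 343, 430 and 593 CPM under GA, a log2 change of -0.87 ± 0.14.

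Of 22 myelin sheath genes tested, 0 rose and 2 fell under GA (Ugt8a and Tppp, 9.09%, where 4.65% of all genes were called), with a median log2 fold change of 0.11. Mbp stood at 1210, 3253 and 4273 CPM awake and 2179, 2955 and 3506 CPM under GA, a log2 fold change of -0.01 ± 0.19 (SE). The ranges overlapped widely. Enzymes of lipid synthesis were also among the calls. Ugt8a, counted in both lists, which makes galactosylceramide, was at 263, 461 and 773 CPM awake and 137, 178 and 329 CPM under GA. The 3 highest GA mice lay above the lowest Awake mouse and below the others, and the log2 fold change was -1.17 ± 0.20 (edgeR adjusted p = 0.00184). Fa2h, the fatty acid 2-hydroxylase of the same pathway, fell by 0.74 (from a median of 474 to 250 CPM) and Sgms1, a sphingomyelin synthase, fell by 0.59 on the log2 scale. Dgat2, which makes triglycerides, rose by 0.92 ± 0.20 (SE). In the list of 28 galactolipid, sphingolipid and fatty acid genes 1 rose and 3 fell (median -0.13), and among 26 genes of cholesterol synthesis and uptake 0 rose and 0 fell (median 0.16). Of 16 oligodendrocyte transcription factors tested, Olig2 rose (9.93, 15.8 and 23.5 CPM awake, 21.0, 34.4 and 52.1 CPM under GA, log2 1.21 ± 0.29) and Sox8 fell (log2 -0.86 ± 0.23, passing in 16 of 32 alternative settings).

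The list of genes that glucocorticoids induce in many tissues was, like the others, chosen with earlier results of these data known, so its shares are descriptions. Of its 25 tested genes, 6 rose (24%, where 2.81% of all genes rose) and 0 fell, with a median log2 fold change of 0.30 against -0.03 over all genes. The 6 were Plin4, a lipid droplet coat protein, Hif3a, Klf9, a transcription factor, Glul, which makes glutamine, Per1, a clock repressor, and Cdkn1a, a cell cycle inhibitor. Plin4 was at 0, 9.52 and 17.3 CPM awake and 6.05, 51.4 and 87.7 CPM under GA. Its lowest GA mouse lay within the Awake range and the other 6 above it. The log2 fold change was 2.33 ± 0.41 (SE, edgeR adjusted p = 0.00226). Hif3a, the third HIF alpha subunit, was at 6.29, 16.7 and 52.8 CPM awake and 19.6, 94.6 and 164 CPM under GA, a log2 change of 2.08 ± 0.40. Its difference was 0.61 within mice 1 to 4 and 2.26 within mice 10 to 20, and that of Plin4 was 0.62 and 2.86.

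Klf9 was at 87.6, 106 and 172 CPM awake and 124, 203 and 233 CPM under GA, with only the lowest GA mouse inside the Awake range (log2 0.68 ± 0.14). Glul was at 120, 182 and 332 CPM awake and 196, 374 and 534 CPM under GA (log2 0.77 ± 0.16). Per1 was at 16.2, 33.7 and 45.9 CPM awake and 33.3, 60.9 and 121 CPM under GA (log2 0.99 ± 0.23, edgeR adjusted p = 0.0169). For Glul 3 GA mice lay within the Awake range and for Per1 only the lowest. Cdkn1a came from few UMIs, at 0, 1.21 and 10.1 CPM awake and 2.59, 14.0 and 25.6 CPM under GA. Fkbp5, a classical glucocorticoid target, had a log2 fold change of 0.97 ± 0.36 that did not pass (edgeR adjusted p = 0.136), with GA mice at 40.6 to 309 CPM. In the smaller members 7 of 25 rose, the 6 above and Arrdc2. Of 18 core clock genes, Per1, counted in both lists, and Cry2 rose and 0 fell (median 0.08), where 2.81% of all genes rose and 1.84% fell. Cry2, a partner of PER1, was at 42.9, 59.5 and 81.2 CPM awake and 66.8, 87.6 and 131 CPM under GA. Over 32 alternative settings Per1 passed in 27 and Cry2 in 24.

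**Figure D4:**
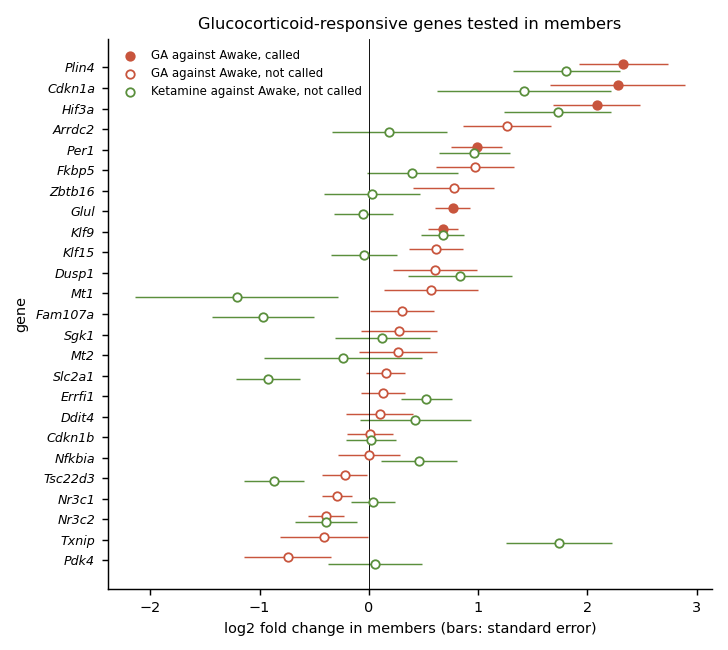
Log2 fold change in members with its standard error for 25 glucocorticoid-responsive genes, under GA and under ketamine against Awake. Filled points passed the test, which 6 genes did under GA, from 0.68 for Klf9 to 2.33 for Plin4, and 0 under ketamine.

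The upstream sequences of Glul and Per1 are shown because these 2 genes each hold 1 of the motifs searched. The letters are the 250 bases before 1 RefSeq start per gene on GRCm38.p6, plus strand, with the match in capitals. Both motifs read the same on either strand. Other starts were not searched, and the Per1 window lies inside the span of that gene in GENCODE (69095217 to 69109960).
Glul, chr1:153899679-153899928: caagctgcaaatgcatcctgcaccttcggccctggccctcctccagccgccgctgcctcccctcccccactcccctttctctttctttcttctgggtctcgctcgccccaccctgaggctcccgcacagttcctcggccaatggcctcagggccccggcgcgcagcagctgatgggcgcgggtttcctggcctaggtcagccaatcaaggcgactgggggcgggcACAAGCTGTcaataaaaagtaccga
Per1, chr11:69098699-69098948: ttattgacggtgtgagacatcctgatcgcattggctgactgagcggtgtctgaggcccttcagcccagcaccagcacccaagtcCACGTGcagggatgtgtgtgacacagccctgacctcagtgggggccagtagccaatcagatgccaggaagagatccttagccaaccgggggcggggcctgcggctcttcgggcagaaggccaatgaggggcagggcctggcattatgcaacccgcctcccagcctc
The motif ACANNNTGT is a shortened form of the paired half-sites that the glucocorticoid receptor is known to bind. It lies 25 to 17 bases before the start of Glul and was absent from this window in the other 5 genes that rose. It occurred in 5.91% of 27025 RefSeq promoters, in 3.51% of the 9242 promoters of tested genes and in 5.02% of the 259 promoters of genes called higher and 1.6% of the 188 of genes called lower under GA. The E-box CACGTG, which clock activators bind, lies 166 to 161 bases before the start of Per1, was not in the window of Cry2, and occurred in 6.05% of all promoters and 8.44% of those of tested genes. Promoters of genes called higher held the E-box in 9.65% and those called lower in 10.6%, both above the 8.44% of tested genes. These shares were not compared by a test. A match is a description of letters and was not tested as a site.

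Among 14 axonal contact genes 1 rose and 2 fell, and among 25 ion channel genes 2 rose (8% called), where 2.81% of all genes rose and 1.84% fell. Nfasc, whose glial form anchors the paranode, was at 306, 670 and 836 CPM awake and 660, 1027 and 1130 CPM under GA (log2 0.61 ± 0.17), and passed in 12 of 32 alternative settings. The adhesion gene Ninj2 was at 158, 350 and 412 CPM awake and 109, 170 and 266 CPM under GA (log2 -0.93 ± 0.19), and Lpar1, a lysophosphatidic acid receptor, fell by 0.92 on the log2 scale. Kcnab1 and Kcna1, subunits of Kv1 potassium channels, rose by 0.96 ± 0.18 and 0.84 ± 0.18 (SE), and 0 of the 25 channel and connexin genes fell. Kcna1 was at 124, 208 and 235 CPM awake and at 167, 320 and 405 CPM under GA, where only the lowest GA mouse was within the Awake range. Of 16 cyclic nucleotide phosphodiesterase genes 1 rose, 1 fell and 14 did not pass. Pde8a was at 184, 437 and 654 CPM awake and 586, 772 and 950 CPM under GA (log2 0.93 ± 0.18), and Pde4b, a cAMP-degrading enzyme highly expressed here, was at 3104, 6409 and 7561 CPM awake and 3300, 3602 and 5400 CPM under GA (log2 -0.64 ± 0.16).

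Supply and stress lists gave 1 or 2 calls each, 4.545 to 10.5% of their genes, where 4.65% of all genes were called. Among 19 genes for lactate, glucose, creatine and iron supply, the creatine transporter gene Slc6a8 rose (log2 0.72 ± 0.19) and Cp, the ferroxidase ceruloplasmin, fell by 0.95. Of 22 heat shock genes 1 fell (Stip1, an HSP70 and HSP90 co-chaperone, log2 -0.85 ± 0.17), and of 16 hypoxia-responsive genes 1 fell (P4ha1). Of 15 immediate-early genes 1 fell, Arc, at 4.06, 12.6 and 20.7 CPM awake and 1.96, 2.95 and 6.92 CPM under GA (log2 -1.59 ± 0.41, edgeR adjusted p = 0.029). Arc, a neuronal activity gene, was not called in smaller members (adjusted p = 0.193), and it fell by 2.35 in all other nuclei. Mpzl1 was the 1 gene of 13 newly formed stage markers that fell, by 0.84. In 7 ERK output genes, 19 subtype genes of mature oligodendrocytes, 14 disease-associated and interferon genes, 23 anesthetic target receptors and channels, 15 glutamate receptor genes, 90 oxidative phosphorylation genes, 84 cytosolic ribosomal protein genes and 13 mitochondrially encoded genes, 0 were called, with medians of -0.31, 0.09, 0.19, -0.26, -0.21, 0.02, 0.02 and 0.06.

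The 16 excitatory and pan-neuronal markers, all detected in every mouse, gave 0 calls, and their sum was 5869 to 14409 CPM in Awake and 7110 to 10706 CPM in GA mice. Of 13 precursor markers, 10 inhibitory, 11 microglial, 5 endothelial and mural and 4 choroid plexus markers tested, 0 were called. The endothelial and mural sum was 9.47, 79.9 and 131 CPM awake and 13.2, 23.9 and 145 CPM under GA, and the choroid plexus sum 858, 1221 and 2847 CPM awake and 502, 741 and 2059 CPM under GA, with lower medians and overlapping ranges. Their part in the results was not tested. Among 13 astrocyte markers Aldh1l1, a folate enzyme, rose (2.48, 10.9 and 18.9 CPM awake, 23.6, 31.8 and 45.5 CPM under GA, log2 1.74 ± 0.27), while the summed astrocyte list was 772 to 1798 and 761 to 1472 CPM. Stxbp6, listed as a dentate granule marker, fell (log2 -1.05 ± 0.16). Of the 47 named genes, 46 were also called in smaller members, all but Arc. That set is part of all members, so the overlap is not independent. Leaving out mice 1 to 4 left 164 calls, and 366 in the smaller members.

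The GA response was also fitted in each genotype, since the study asked how fAD and WT hippocampi differ under anesthesia. In WT mice 66 genes were called (0.542%, with 29 or 0.238% higher and 37 or 0.304% lower), and in fAD mice 57 (0.468%, with 50 or 0.411% higher and 7 or 0.0575% lower). Smaller members gave 208 in WT (2.12%, with 125 or 1.28% higher and 83 or 0.847% lower) and 180 in fAD mice (1.84%, with 144 or 1.47% higher and 36 or 0.368% lower). The 2 contrasts compare different mice but come from the same fit, with a shared run term and estimate of spread, so they are not independent. On both lists stood 20 genes, 30.3% of the WT list and 35.1% of the fAD list, each with the same sign. They included Erlin2 (log2 2.43 ± 0.25 in WT and 1.99 ± 0.27 in fAD), Plpbp (1.68 ± 0.21 and 1.87 ± 0.24), Atp11a, Coro1c, Aff1 and Fanca among those higher, and P4ha1, Erbb3 and Pla2g4a lower. Sox2, a progenitor factor, was called in WT mice (log2 -2.07) and Lhpp, a phosphatase gene, in fAD mice (log2 2.11). A call in 1 genotype is no difference between them. The interaction of genotype with GA, which tests that difference, gave 0 calls of 12167 (0%), with 391 genes at an unadjusted p under 0.05 and 0 calls by DESeq2. The smallest p values belonged to Mkx (-1.81 ± 0.40, fAD minus WT response), Hsd11b1, which activates glucocorticoids in cells (-1.59 ± 0.37), and Spidr (1.23 ± 0.32), each with an edgeR adjusted p of 1. Hsd11b1 was at 5.94 to 21.0 CPM in WT-Awake, 14.1, 18.4 and 37.5 CPM in fAD-Awake, 15.7, 15.7 and 48.4 CPM in WT-GA, and 8.18, 9.79, 12.7 and 30.2 CPM in fAD-GA mice, so all 4 groups overlapped.

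A further fit asked whether members responded to GA differently from all other nuclei of the same mice, within mouse. The response differed for 316 of 18323 genes (1.72%), more positive in members for 278 (1.52%) and more negative for 38 (0.207%). The smaller members gave 777 of 18879 (4.12%, with 573 or 3.04% more positive and 204 or 1.08% more negative). All other nuclei hold every other cell type together, and GA alone changed 1901 of 20314 genes there (9.36%, with 1096 or 5.4% higher and 805 or 3.96% lower). Plpbp differed by 1.76 ± 0.16 (SE, edgeR adjusted p = 1.07e-07), with log2 fold changes of 1.78 in members and -0.01 elsewhere. Coro1c differed by 1.69, Atp11a by 1.32 and Erlin2 by 1.82, the last with a log2 fold change of 0.40 in other nuclei. Several genes moved in opposite directions. Per1 had log2 fold changes of 0.99 in members and -0.34 in other nuclei (difference 1.35 ± 0.15), Bach2, a transcriptional repressor gene, 0.86 and -0.45 (1.33 ± 0.16), Prex1, a Rac activator, 1.01 and -0.40 (1.46 ± 0.15), and Ubash3b 0.77 and -0.38 (1.18 ± 0.12). Lrp4, a receptor for agrin, stood at 17.3, 30.2 and 60.5 CPM in members of Awake mice and 44.4, 67.8 and 140 CPM under GA, and its response differed by 1.66 ± 0.20. Of 29 glucocorticoid genes tested in this fit, Per1, Glul (0.97 ± 0.18) and Klf9 (0.57 ± 0.13) responded more in members and 0 less, with a median difference of 0.42 against 0.05 over all genes. Of 26 channel genes, Kcnab1 (1.16), Kcna1 (0.79) and Atp1b3 (0.72, a sodium pump subunit that passed in 8 of 25 alternative settings) had a more positive response in members. Hcn2 (0.88), a channel gene listed among the anesthetic targets, did too. A positive difference can also come from a fall in other nuclei, and Atp1b3 and Hcn2 were not called under GA in members.

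**Figure D5:**
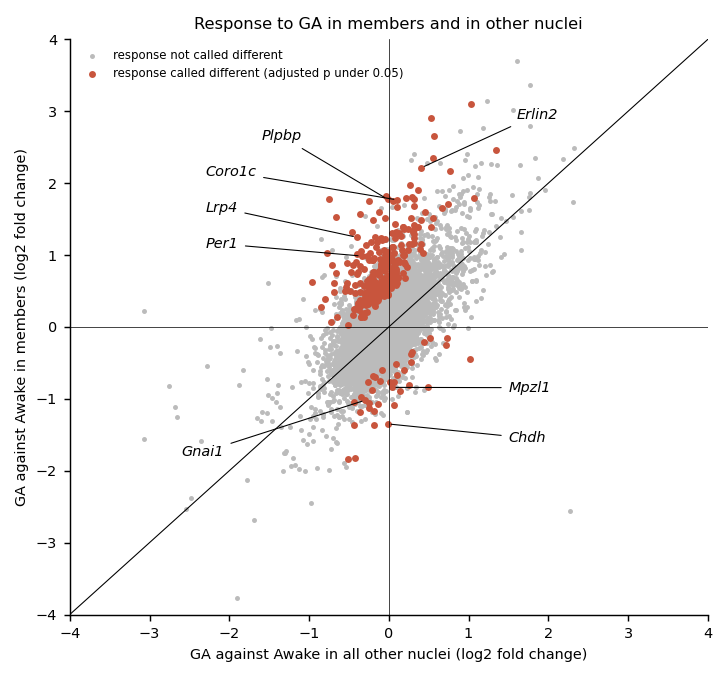
Each point is a gene, with its log2 fold change under GA in all other nuclei on the x axis and in members on the y axis. The line marks equal responses, and called genes such as Plpbp (-0.01 and 1.78) and Per1 (-0.34 and 0.99) lie above it.

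On the negative side, Mpzl1, an adhesion protein of the myelin protein zero family, differed by -0.84 ± 0.15, with log2 fold changes of -0.84 in members and 0.05 elsewhere. Gnai1, an inhibitory G protein subunit, was at 148, 240 and 258 CPM in members of Awake mice and 91.1, 105 and 182 CPM under GA, and differed by -0.75 ± 0.14. Chdh, which oxidizes choline, differed by -1.33 ± 0.27. Ugt8a and Erbb3 did not pass in this fit (differences of -0.53 ± 0.17 and -0.72 ± 0.35), and their log2 fold changes in other nuclei were -0.60 and -1.17. Spred1, a Ras inhibitor, was called here (0.83 ± 0.12) with a log2 fold change of 0.07 in members and -0.73 in other nuclei. H2-K1 was called with all members and not with smaller ones.

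Ketamine was compared with Awake mice without the run term, because all 4 Ketamine mice carry numbers 25 to 28 and only 1 Awake mouse (29) shares their run. Drug and run cannot be told apart, and with a run term 0 genes were called. Members gave 212 calls of 12167 (1.74%), with 125 higher (1.03%) and 87 lower (0.715%), and smaller members 284 (2.9%, with 190 or 1.94% higher and 94 or 0.96% lower). In all other nuclei 2439 of 20314 genes were called (12%, with 1173 or 5.77% higher and 1266 or 6.23% lower). Lars2, a mitochondrial leucyl-tRNA synthetase gene, was at 32.2, 42.9 and 94.1 CPM awake and at 114, 181, 199 and 675 CPM in the Ketamine mice (log2 2.31 ± 0.31, edgeR adjusted p = 0.00138). AY036118 was at 154, 244 and 452 CPM awake and 446, 1141, 2154 and 4839 CPM under ketamine. It is known to collect reads of ribosomal RNA repeats, so its counts are uncertain. Prg4, lubricin, was at 0, 2.63 and 8.12 CPM awake and 4.43, 39.2, 79.8 and 215 CPM under ketamine, and the summed endothelial and mural markers of members were 9.47 to 131 CPM in Awake and 112 to 363 CPM in Ketamine mice. The neuronal markers of smaller members had a median of 2488 CPM (1237 to 3371) awake and 1161 CPM (955 to 1538) under ketamine. The part of these markers in the result was not tested.

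This comparison shares its Awake mice with that of GA, so the values of genes named in both are given side by side only. Fanca was at 35.4, 38.2, 80.4 and 91.5 CPM in Ketamine mice (log2 2.56 ± 0.38) and 4.14, 10.1 and 24.8 CPM awake. P4ha1 was at 46.7, 51.5, 69.8 and 72.0 CPM (log2 -1.42 ± 0.25), below every Awake mouse. Gnai1 was at 83.1, 101, 104 and 130 CPM (log2 -1.12 ± 0.19), and Kcnab1 at 942, 993, 1048 and 1105 CPM (log2 0.92 ± 0.23). For ketamine, Kcnab1 passed in 12 of 31 alternative settings. Of the 25 glucocorticoid genes, 0 were called, with a median of 0.12 against -0.07 over all genes. Plin4 had a log2 change of 1.80 ± 0.49 (edgeR adjusted p = 0.0636) and Klf9 of 0.68 ± 0.20 (adjusted p = 0.0813), and in smaller members Plin4, Klf9 and Hif3a were called. Glul, at 171, 175, 217 and 249 CPM, had a log2 change of -0.05 ± 0.27. Of the myelin sheath genes 0 were called (median -0.31). Sox8 fell by 1.44, and Fdps, which makes farnesyl diphosphate for cholesterol, was at 1.79, 6.07, 6.87 and 7.75 CPM against 11.9, 25.2 and 51.3 CPM awake (log2 -2.29 ± 0.50). The 13 mitochondrially encoded genes had a median of -2.98 with 0 called, and made up 0.0386 to 0.0852% of member UMIs in Ketamine mice.

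Set against GA, ketamine members differed in 164 of 12167 genes (1.35%), with 83 higher (0.682%) and 81 lower (0.666%), again with 0 under a run term, and smaller members in 379 (3.87%, with 174 or 1.78% higher and 205 or 2.09% lower). Of 26 cholesterol genes, 5 were lower and 21 did not pass, with a median log2 difference of -0.81 against -0.04 over all genes. The neuronal markers of smaller members moved too, at 955 to 1538 CPM under ketamine and 1809 to 3381 CPM under GA. The endothelial and mural sum of members was 112 to 363 CPM under ketamine and 13.2 to 145 CPM under GA, and that of smaller members 175 to 531 and 10.0 to 178 CPM. The mitochondrially encoded sum of members was 386 to 852 CPM under ketamine and 463 to 23097 CPM under GA. Their part in the result was not tested. Hmgcs1, which makes HMG-CoA for the pathway, was at 31.3, 53.1 and 114 CPM under GA and 15.8, 21.0, 23.3 and 23.4 CPM under ketamine (log2 -1.53 ± 0.31). Msmo1, a sterol demethylase, differed by -1.82 ± 0.40, Fdps by -2.48 ± 0.51, Sc5d, a sterol desaturase, by -1.02 ± 0.25 and Srebf2, the transcription factor that induces the pathway, by -0.75 ± 0.18. Srebf2 was not called in smaller members, and over 31 alternative settings Srebf2 passed in 11 and Sc5d in 9. Cerk, ceramide kinase, was at 295, 356 and 471 CPM under GA and 90.0, 96.3, 113 and 157 CPM under ketamine (log2 -1.77 ± 0.28). Txnip, a thioredoxin inhibitor, was higher under ketamine (2.59 ± 0.53). Prg4, Twist1, Igfbp5 and Col1a2, a collagen chain gene, were higher too. Col1a2, which passed in 18 of 31 alternative settings, was at 84.1, 133, 169 and 322 CPM under ketamine and 0 to 82.3 CPM under GA.

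Genotype gave no call. Over the 3 states, 0 of 12167 genes differed between the 9 fAD and 11 WT mice (0%, edgeR), with 681 at an unadjusted p under 0.05, 1 call by DESeq2 and 0 in the smaller members. All 22 myelin sheath genes were among those not called, with a median log2 difference of -0.09 (fAD minus WT). Epha7, an ephrin receptor, had the smallest p, at a log2 difference of 0.75 ± 0.15 (edgeR adjusted p = 0.68). It was at 83.9 to 276 CPM in WT-Awake and 207, 234 and 423 CPM in fAD-Awake mice, at 137, 208 and 235 CPM in WT-GA and 135, 219, 257 and 349 CPM in fAD-GA mice, and at 178 and 192 CPM in WT-Ketamine and 436 and 487 CPM in fAD-Ketamine mice. The pair of genotypes separated only under ketamine. Ccbe1 (0.98 ± 0.21) and Iqgap2 (0.56 ± 0.13) followed, and the smallest p among lower genes belonged to Fbln1 (-2.46 ± 0.63), a matrix protein gene. Prnp, whose promoter drives the transgenes, had a log2 difference of 0.97 ± 0.24 (edgeR adjusted p = 0.784), and App, the endogenous gene, had an adjusted p of 1. Prnp was at 51.5 to 224 CPM in WT and 84.1 to 413 CPM in fAD mice, which overlapped.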

How the data were processed

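The authors deposited, per sample, 10x Genomics matrices of UMI counts per gene and nucleus (raw counts, 32285 genes), and per the labels they were made with Cell Ranger 5.0.0 on mm10. No cell annotation was used here. Groups came from the labels, which differ in group sizes from the series' design text. The labels name kit v3.1 and perfusion, where the study's methods differ. Members were found by the marker rule, and the members and gene lists were chosen with earlier results of these data known. Counts were summed over members per mouse, without the 16 rule genes, and tested with edgeR 4.0.16 (R 4.3.3): TMM scaling, filterByExpr, quasi-likelihood F tests and Benjamini-Hochberg adjustment at 0.05 over all genes tested. All 20 mice entered each fit, with genotype and state groups, and a term for the run of mouse numbers for GA, genotype and interaction. The comparison with other nuclei fitted both sums of a mouse together. Shares were tested by exact permutation over mice. Doublets were scored per library by simulated pairs and kept in the main results. Fits were tested on simulated counts. Each sample is a separate mouse. Named genes were, per comparison, the 10 called genes with the smallest p in each direction and the called genes of the lists, or, with none called, those 5 with the smallest p in each direction. Proscos, Fkbp5, Arrdc2, Hsd11b1's group values and genes not called were chosen after their values were seen. Promoters and positions came from RefSeq (GRCm38.p6) and GENCODE M21. Alternatives were DESeq2 1.42.0, no filter, other run terms, left-out mice, doublets or nuclei, equal numbers of members and each mouse left out. Some results that met the naming rule are not reported here.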

Additional observations from a re-analysis of the deposited data

Results flagged for a closer look

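In 11 of 190 cases, each 1 measure in the 6 WT-Awake or the 4 fAD-GA mice, 1 mouse lay far from the others by Dixon's criterion, where chance gives about 1 in 20. WT-Awake mouse 1 was far above the other WT-Awake mice in Plpbp (108 CPM), Hif3a (52.8 CPM), Cdkn1a (10.1 CPM) and mitochondrial share (1.50% of member UMIs), and far below them in Spred1 (64.6 CPM). In WT-Awake mouse 19 Cyp3a13 was high (22.03 CPM). Among fAD-GA mice, mouse 4 was high in 4930558K02Rik (20.2 CPM), mitochondrial share (1.62%) and median UMIs per member (1130 UMIs), mouse 11 in Cdh20 (546 CPM) and mouse 15 in Atp1b3 (294 CPM). Mice 1 and 4 belong to the run with high mitochondrial share, whose part in these values was not tested.

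The GA response differed between members and all other nuclei of the same mice for 316 genes. In log2 units, members minus other nuclei, the differences among named genes were 1.76 for Plpbp, 1.69 for Coro1c, 1.32 for Atp11a, 1.18 for Ubash3b, 1.46 for Prex1, 1.82 for Erlin2, 1.35 for Per1, 1.33 for Bach2, 1.52 for Aff1 and 1.66 for Lrp4. Listed genes with a positive difference included Kcnab1 at 1.16, H2-K1 at 1.13, Glul at 0.97, Jun at 0.89, Hcn2 at 0.88, Spred1 at 0.83, Bhlhe41 at 0.79, Zfp536 at 0.79, Kcna1 at 0.79, Slc6a8 at 0.75, Atp1b3 at 0.72, Nfasc at 0.66, Cry2 at 0.62, Sirt2 at 0.61 and Klf9 at 0.57. Among these, Atp1b3 passed in 8, H2-K1 in 10, Jun in 12 and Slc6a8 in 16 of 25 alternative settings. Differences below 0 were -1.41 for Adamtsl4, -1.33 for Chdh, -1.31 for 9130019P16Rik, -0.98 for Aven, -0.91 for Fam234a, -0.84 for Mpzl1, -0.83 for Pik3c2b, -0.83 for Gm11250, -0.75 for Gnai1, -0.65 for 1600020E01Rik and -0.60 for Stxbp6.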

How the results depend on the processing

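Counts of calls covered all genes and moved between settings, while signs were followed for named genes only. Those genes were chosen as called and the settings refit largely the same mice, so few reversals could occur. Under GA, 24 of 47 named genes passed under every alternative and 0 reversed, and 17 of 37 did for members against other nuclei, 2 of 22 for GA in WT mice, 0 of 19 for GA in fAD mice, 0 of 30 for ketamine against Awake and 0 of 28 for ketamine against GA. Genes named for GA over both genotypes that often missed the threshold, with the settings they passed in, included Nfasc (12 of 32), Sox8 (16 of 32), Cp (17 of 31), Slc6a8 (18 of 32), Cdkn1a (18 of 31), Arc (18 of 30) and Fa2h (19 of 32). GA over both genotypes gave 872 calls with no filter on low counts, 329 with no run term, 164 without mice 1 to 4, 175 with equal members per mouse, 366 without large members and mice 1 to 4, and 287 to 653 with 1 mouse left out (375 without WT-Awake 1, 299 without fAD-Awake 2, 287 without fAD-GA 4, 316 without WT-GA 18). GA in WT mice gave 186 with DESeq2, 292 with no filter, 33 with no run term, 118 with sets of 4 mouse numbers, 29 without mice 1 to 4, 34 without marked doublets, 22 with equal members, 21 with only Awake and GA mice, 208 without large members, 114 without large members and mice 1 to 4, and 2 (without WT-GA 18) to 168 (without fAD-Awake 10) with 1 mouse out, where WT-Awake 1, 13, 14 and 19, WT-GA 16 and fAD-Ketamine 26 also moved it (16, 13, 4, 24, 20 and 43). GA in fAD mice gave 142, 359, 12, 94 and 3 under the first 5 of these settings, 6 with equal members, 33 with only Awake and GA mice, 180 without large members, 14 without large members and mice 1 to 4, and 1 (without fAD-Awake 2) to 121 (without fAD-GA 11), with 4, 31 and 32 without fAD-GA 4, 15 and 20.

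Ketamine against Awake gave 415 with DESeq2, 463 with no filter, 0 with a run term and 0 with sets of 4, 121 without mice 1 to 4, 98 without marked doublets, 125 with 6 or more marker UMIs, 33 with equal members, and 15 (without fAD-Ketamine 25) to 317 (without WT-Awake 29), with 16, 79 and 83 without Ketamine mice 27, 26 and 28, 131, 114 and 114 without WT-Awake 1, 13 and 14, and 73 without fAD-Awake 2. Ketamine against GA gave 448, 498, 0 and 0 under the first 4, 106 without doublets, 94 with 6 or more marker UMIs, 20 with equal members, 379 without large members, 257 without large members and mice 1 to 4, and 2 (without fAD-Ketamine 25 or WT-Ketamine 27) to 254 (without fAD-GA 11), with 250 without fAD-Awake 10, 103 without WT-Awake 13, 24 and 25 without Ketamine mice 26 and 28, and 55 to 101 without 1 of GA mice 3, 4, 15, 16 and 18. Txnip reversed there to -0.028 with sets of 4. Genotype gave 1 with DESeq2, 81 with no filter and 2 with sets of 4, and the interaction 34 with no filter. Members against other nuclei gave 210 without doublets, 144 without mice 1 to 4, 777 without large members, and 146 (without WT-GA 18) to 446 (without fAD-Awake 10), with 202, 178 and 193 without WT-Awake 1, fAD-GA 4 and WT-GA 16. The fAD minus WT share of members turned from -0.494 to 1.84 points after thinning to 1000 UMIs and 0.0218 with 6 or more marker UMIs, and ranged from -1.21 to 0.123 (without fAD-Awake 10) with 1 mouse out. The GA minus Awake share (-0.759 points) ranged from -1.59 (without WT-Awake 12) to -0.0153 (without WT-Awake 29) and was -1.27 with 6 or more marker UMIs, and the ketamine share (2.73) was 0.71 after thinning and 1.52 with 6 or more marker UMIs. Thinning left out nuclei with fewer than 1000 UMIs, many of them members, so the thinned shares describe deeper nuclei only. Alternatives that leave out large members were chosen after seeing the data. The cause of these moves was not tested. The study processed tissue in batches of 4, and the sets of 4 mouse numbers above were tried as a block, though the labels do not say which mice shared a batch.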

Other observations

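Members of the same mouse varied among themselves. By excess of variance over counting noise, averaged over mice, the top genes among all members were Sgcd, Kcnq5, Mgat4c, Galntl6 and Tenm3, of 1155 ranked. None of these 5 was among the first 60 genes in smaller members. Only genes above a set mean UMI count per nucleus in every mouse were ranked, and smaller members hold fewer UMIs. A gene can therefore be absent from the second ranking through that filter. The large members, which carried 13647 to 18729 CPM of the neuronal list, count in the first ranking only. In smaller members the top genes included Rora, Celf2, Lsamp and Tenm2, of 675 ranked, with Kirrel3, an adhesion gene at 1.40 UMIs per nucleus in the median mouse, at rank 15. These are descriptions with no test.

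Of 1929 tested pairs of overlapping genes on opposite strands, 1122 (58.2%) had log2 fold changes of the same sign under GA. Both genes were called in 29 pairs, and all 29 had the same sign, among them Plpbp with Proscos, Kcnab1 with A330015K06Rik and Rnf220 with Gm12828.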
